A study of Drosophila melanogaster with 6 samples.

Results

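The proteasome is the protease that degrades ubiquitin-tagged proteins in the cytoplasm and nucleus. Its barrel-shaped core particle is built from stacked rings of alpha and beta subunits, with the proteolytic sites on the inner face of beta subunits. The regulatory particle at its ends has a base, whose ring of Rpt ATPases unfolds the substrate and feeds it into the core, and a lid of Rpn proteins, which carries the deubiquitinating activity. Eukaryotic cells generally make the subunits in matched amounts, and in flies the cap'n'collar factor cnc raises their transcription when the proteasome is impaired.

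Of the 8470 genes in the deposited gene table, 34 had a symbol that starts with Prosalpha, Prosbeta, Rpn or Rpt followed by a digit, and these are the proteasome subunit genes described here. They comprise 7 core alpha genes, 8 core beta genes, 7 Rpt genes and 12 Rpn genes. A letter after the subunit number marks a copy of a subunit gene, and 3 of the members are copies: Prosalpha1R, Prosbeta2R2 and Rpt3R. All 34 passed the filter on low counts and were tested. The members lie on all the large chromosome arms, with 10 on 2R, 11 on 3R, 5 on 3L, 4 on 2L and 4 on X.

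The samples were intestinal stem cells (ISCs) of adult female Drosophila midguts, sorted by FACS for YFP. There were 3 libraries with NF-YA RNAi (VDRC line 106132) and 3 control libraries, for which the driver was crossed to Oregon R. Both groups carried Esg-Gal4-ts and UAS-2x YFP with Su(H)-GBE-Gal80, which directs Gal4 activity to ISCs and keeps it off in enteroblasts. Per the sample labels, flies of both groups spent 3 days at 18 °C, 3 days at 29 °C to switch the driver on, and 3 further days on holidic food, a diet of defined chemicals. The study's text gives a shorter time of RNAi induction for these libraries, and the difference was not settled here. Because the control cross lacks both the RNAi transgene and the genetic background of the RNAi line, an effect of the RNAi and an effect of the strain cannot be told apart. NF-YA is the sequence-specific subunit of Nuclear Factor Y, which binds CCAAT boxes in promoters. The libraries are named by their numbers, 2, 4 and 5 for NF-YA RNAi and 1, 2 and 3 for the control, and values are given in that order.

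Depth was 77092609 to 118463169 estimated counts in the NF-YA RNAi libraries and 98240298 to 122269943 in the control libraries. Nf-YA itself had 3.58, 4.92 and 4.30 CPM (estimated counts scaled to library size with TMM) in NF-YA RNAi, against 16.01, 19.65 and 23.6 CPM in the control. Its log2 fold change was -2.21 ± 0.20 (SE, edgeR adjusted p = 2.03e-04). The progenitor marker esg was present in every library, at 173 to 197 CPM in NF-YA RNAi and 245 to 309 CPM in the control, and was called lower in NF-YA RNAi (log2 fold change -0.62 ± 0.11, adjusted p = 0.00714). The 6 progenitor markers matched, of 8 listed, summed to 3109 to 3287 CPM in NF-YA RNAi and 3217 to 3659 CPM in the control. Markers of other gut cells were present too, and the enterocyte and enteroendocrine sums differed between the groups. The summed level of 14 enterocyte markers, of which Smvt alone was at 0 in every library, was 534 to 1561 CPM in NF-YA RNAi and 2000 to 5090 CPM in the control. The summed level of 10 enteroendocrine markers was 470 to 1092 CPM in NF-YA RNAi and 1657 to 2096 CPM in the control. For 10 visceral muscle markers the sums were 7.47 to 13.1 CPM in NF-YA RNAi and 11.1 to 45.3 CPM in the control, and these ranges overlapped. In bulk samples a change in the number of cells of a type and a change in RNA per cell cannot be told apart.

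Transcripts of proteasome subunit genes were, as a group, slightly more abundant in NF-YA RNAi than in control ISCs. Of the 34 members, 13 were called higher at an edgeR adjusted p under 0.05, in a comparison that called 6.19% of the 9080 tested genes higher. None was called lower, where the comparison called 8.02% of all genes lower. No member was lower at an unadjusted p under 0.05 either, and DESeq2 and limma also called 0 members lower. All 34 log2 fold changes were above 0, compared with 48.3% of all genes tested. The direction did not hold for every member in every fit: 32 were above 0 under the replicate block and with limma, and 30 to 34 with 1 library omitted. The members that turned in 1 or more of these fits were Rpn9, Rpt6 and Prosbeta5, whose log2 fold changes were at most 0.07, and the barely expressed copies Rpt3R and Prosbeta2R2, whose SEs were 1.501 and 0.95. The median log2 fold change of the members was 0.30, compared with -0.02 for all genes tested. In 22 of 34 members all the NF-YA RNAi libraries lay above all the control libraries, as did 16.5% of all genes tested. DESeq2 called 18 members higher, among them the same 13. Of all genes to which it gave an adjusted p, 8.3% were called higher. All 5 members that DESeq2 added were lid genes.

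**Figure D1:**
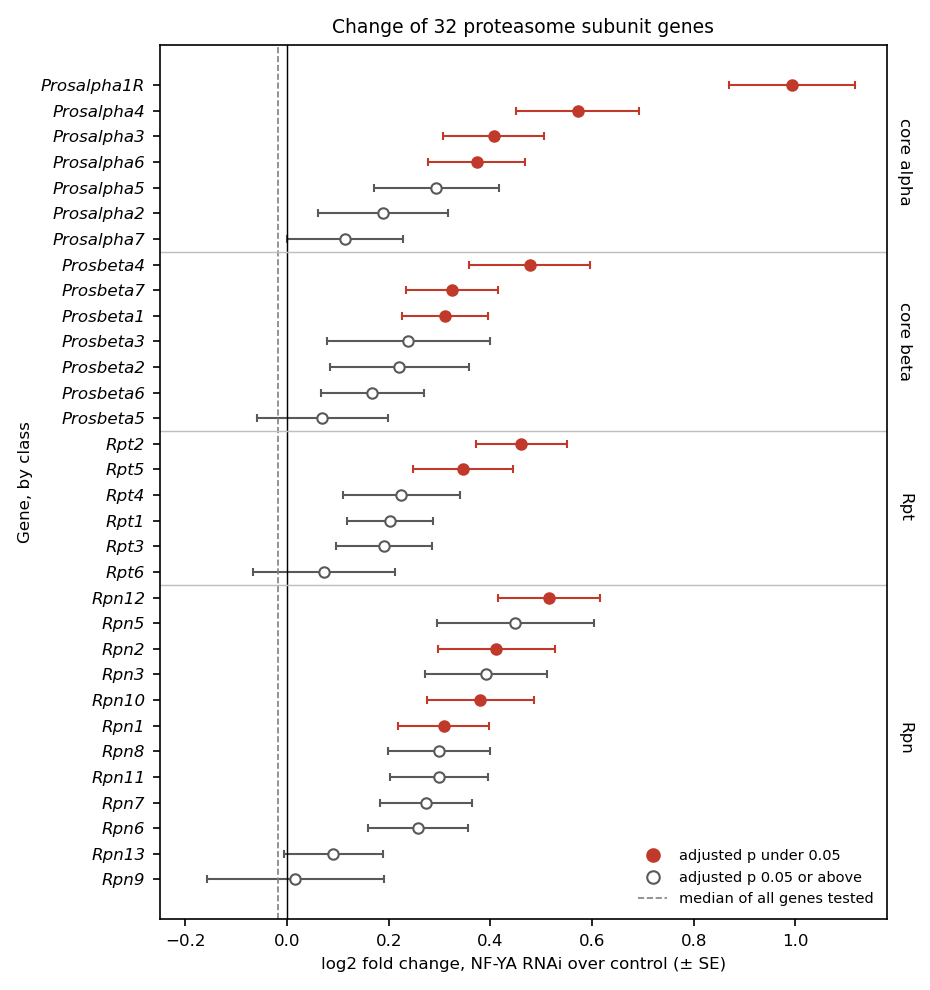
The log2 fold change of NF-YA RNAi over control (x axis, log2, bars ± SE) is plotted for the 32 proteasome subunit genes at 1 CPM or more, grouped by class and ordered by change within a class. Filled points mark the 13 genes with an adjusted p under 0.05; every point lies to the right of 0, and Prosalpha1R, at 0.99, stands apart from the other 31.

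The number of calls depended on single libraries. Without NF-YA RNAi library 2, 4 or 5 the count of members called higher was 10, 2 or 1, and without control library 1, 2 or 3 it was 3, 4 or 9. The calls over all genes fell in the same fits. Of 9354 to 9457 genes tested, 507, 192 or 188 were called higher without NF-YA RNAi library 2, 4 or 5. Without control library 1, 2 or 3 it was 231, 243 or 486, so the loss of calls was not particular to the members. Prosalpha1R was called in all 6 of these fits, Rpn12 in 5 and Rpt2 in 4. Prosalpha3, Prosalpha4, Prosalpha6, Prosbeta4, Rpn10 and Rpt5 were called in 2 of the fits, Prosbeta7 and Rpn2 in 1, and Prosbeta1 and Rpn1 in 0. The members' median log2 fold change moved less, between 0.26 without control library 1 and 0.34 without control library 2. With counts scaled by library size alone, the median of the members was 0.38, 17 members were called higher, and the calls over all genes were 784 higher and 541 lower, against 562 higher and 728 lower with TMM.

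The libraries of a group differed in the same sense for many members at once. Over the 32 members at 1 CPM or more in every library, the median log2 difference from the control mean was 0.26, 0.31 and 0.36 in NF-YA RNAi libraries 2, 4 and 5, and -0.12, 0.08 and 0.05 in control libraries 1, 2 and 3. Control library 1 was the lowest control for 27 of the 32 and the highest for 0. NF-YA RNAi library 5 was the highest of its group for 19 and the lowest for 1. The enterocyte markers summed to 1561, 681 and 534 CPM in NF-YA RNAi libraries 2, 4 and 5, and to 5090, 2239 and 2000 CPM in control libraries 1, 2 and 3, so the library with the lowest member levels had the highest enterocyte sum. Without control library 1 the median log2 fold change was 0.26 and 3 members were called higher, with 231 of 9389 genes called higher. Without NF-YA RNAi library 4 or 5, 2 or 1 members were called higher, so such a drop was not particular to control library 1. The part of these markers in the result was not tested.

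**Figure D2:**
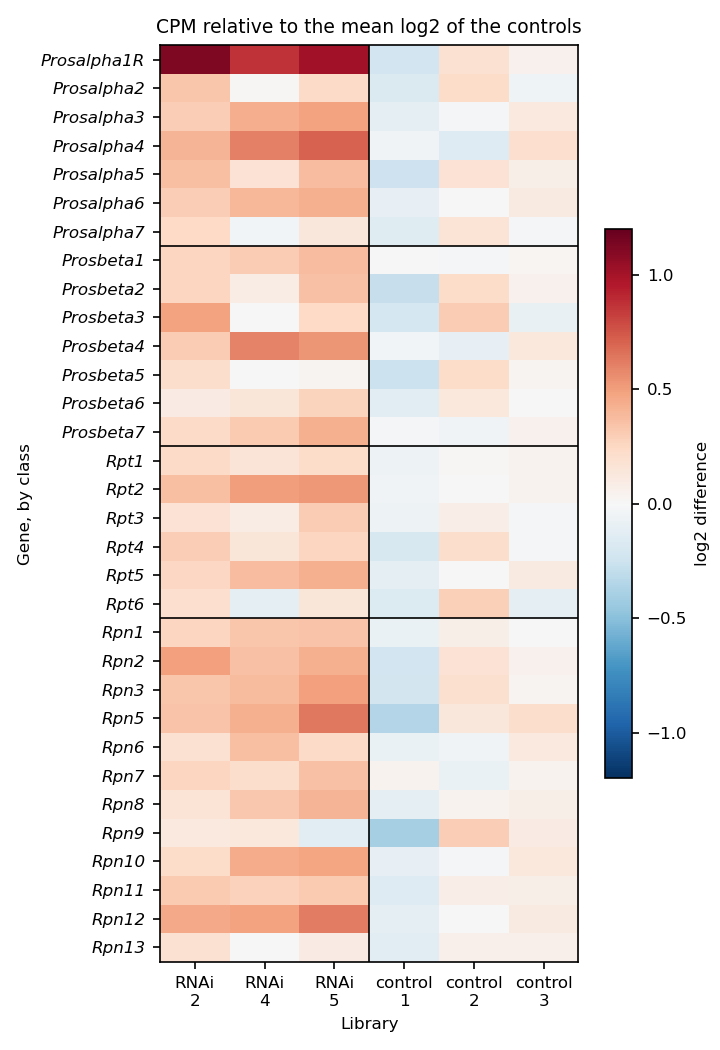
Each row is 1 of the 32 members at 1 CPM or more and each column is a library (NF-YA RNAi left, control right); the colour gives log2 CPM minus the mean log2 CPM of the control libraries. Control library 1 is the lowest control for 27 of the 32 rows, and Prosalpha1R has the deepest red in all the NF-YA RNAi libraries.

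Levels of the members relative to each other were compared in TPM, Salmon's transcript abundance, which corrects for length. The expressed members spanned 22.6 TPM for Rpn9 to 324 TPM for Prosbeta7 in NF-YA RNAi, a 14.4-fold range of group means. In the control the span was 21.0 TPM for Rpn9 to 244 TPM for Prosbeta1, a range of 11.6-fold. Thus the expressed members differed widely in transcript level in both groups. The beta genes alone, whose products occur in equal number in the core, covered much of that range. Prosbeta1 and Prosbeta7 were at the top, and Prosbeta2, Prosbeta3 and Prosbeta4 were each at 86.8 TPM or less on average in either group. The Rpn genes had the lowest median level of the classes, with a median of 79.3, 81.0 and 84.4 TPM in NF-YA RNAi and 51.3, 60.1 and 60.1 TPM in the control. For the core alpha genes the medians were 177, 168 and 180 TPM in NF-YA RNAi and 105, 148 and 125 TPM in the control. Together the 34 members took 0.448%, 0.437% and 0.466% of all TPM in NF-YA RNAi and 0.303%, 0.373% and 0.346% in the control, so the groups did not overlap in this sum.

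**Figure D3:**
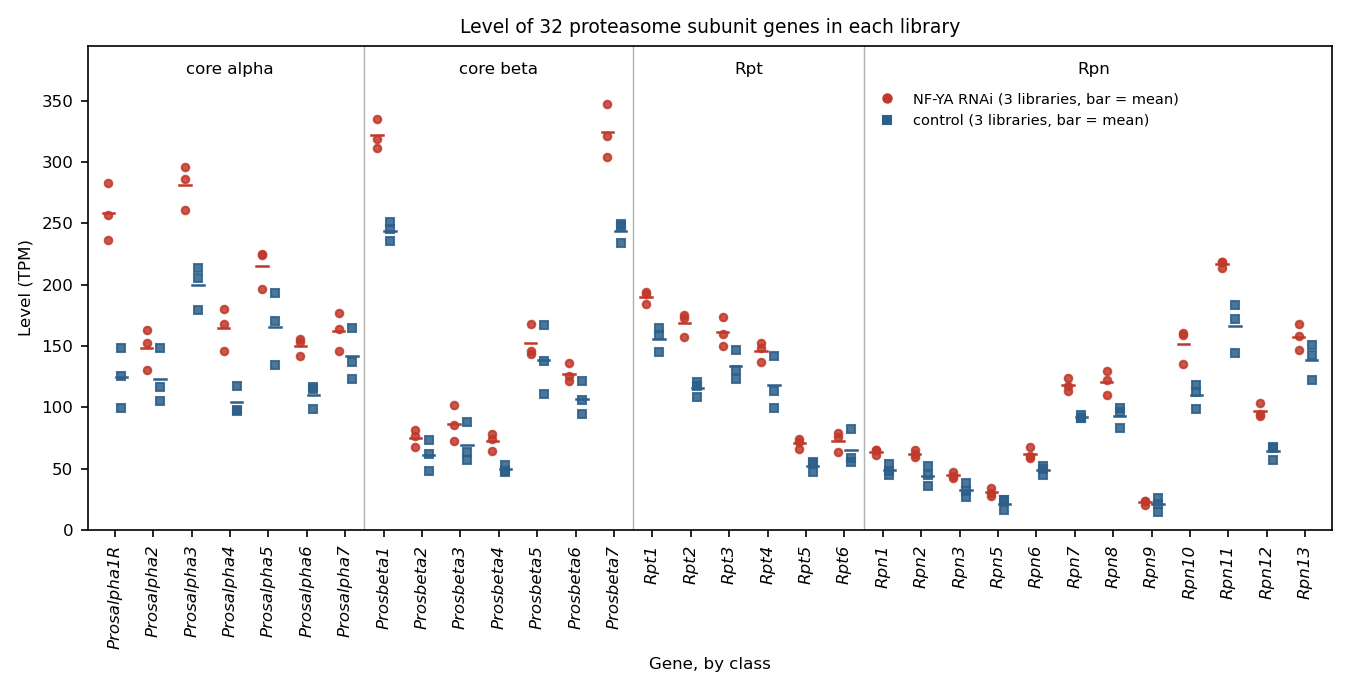
The level (TPM, linear axis) of 32 proteasome subunit genes is shown in each library, with NF-YA RNAi as circles to the left of the control as squares and the mean of each group as a bar. Prosbeta1 and Prosbeta7 are the most abundant in both groups, and Rpn9 is the least abundant, with overlapping groups at 22.6 and 21.0 TPM on average.

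The alpha subunits form the outer rings of the core, which hold the gate that substrates pass. Of the 7 core alpha genes, 4 were called higher, as were 6.19% of all genes tested, and the median log2 fold change was 0.37. Prosalpha4 (X:16276270-16277587) had 163, 188 and 201 CPM in NF-YA RNAi, against 120, 111 and 141 CPM in the control. Its groups did not overlap, and its log2 fold change of 0.57 ± 0.12 (SE, edgeR adjusted p = 0.0158) was the highest of the alpha genes other than Prosalpha1R. Prosalpha3 (2R:20994900-20996118) had 229, 252 and 261 CPM in NF-YA RNAi, against 173, 184 and 203 CPM in the control, and rose by 0.41 ± 0.10 on the log2 scale (adjusted p = 0.0259). For Prosalpha6 (2L:10221351-10222546) the values were 141, 152 and 155 CPM in NF-YA RNAi and 107, 115 and 125 CPM in the control, with a log2 fold change of 0.37 ± 0.10 (adjusted p = 0.032). In both genes the lowest NF-YA RNAi library was above the highest control library. Prosalpha7 was at the other end of the class, with 156, 129 and 145 CPM in NF-YA RNAi and 119, 148 and 130 CPM in the control. Its groups overlapped, and its log2 fold change of 0.11 ± 0.11 did not pass the test (adjusted p = 0.564). Prosalpha2 and Prosalpha5, at 0.19 and 0.29, did not pass it either.

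No other member changed as much as Prosalpha1R. Subunit alpha1 is encoded by a pair of neighbouring genes on the minus strand of 2R, Prosalpha1 (FBgn0263121, 7827303-7828678) and Prosalpha1R (FBgn0050382, 7830413-7831771). Their lower coordinates are 3110 bases apart in the BDGP6.54 annotation. Only Prosalpha1R is in the deposited gene table. Although its symbol marks it as a copy, its mean of 259 TPM in NF-YA RNAi and 124 TPM in the control lay within the range of the other alpha genes, 149 to 281 TPM in NF-YA RNAi and 104 to 199.6 TPM in the control. It had 239, 200.5 and 220 CPM in NF-YA RNAi, against 93.3, 125 and 113 CPM in the control. The groups were far apart, with a log2 fold change of 0.99 ± 0.12 (SE, edgeR adjusted p = 0.00156), which is 1.99-fold. Prosalpha1 had 1195, 996 and 640 estimated counts in NF-YA RNAi, or 10.2, 8.15 and 8.07 CPM, and 0 counts in every control library. Set against a floor of 3 counts per library, which averages 0.0283 CPM over the control libraries, the mean of NF-YA RNAi was 312-fold higher. That floor covers counting error only and not the division of reads between the copies, so 312-fold is no lower bound. Salmon assigned 4.10%, 3.91% and 3.54% of the counts of the pair to Prosalpha1 in the NF-YA RNAi libraries. Reads that match both copies are divided by estimation, so the split between the copies is uncertain while their sum is less so. Summed, the pair had 249, 209 and 228 CPM in NF-YA RNAi and 93.3, 125 and 113 CPM in the control, a log2 fold change of 1.05 ± 0.12 (adjusted p = 0.00116). Without Prosalpha1R, 12 of the other 33 members were called higher and their median log2 fold change was 0.29.

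The genes interleaved with the pair were higher in NF-YA RNAi as well. On the plus strand phr, a photolyase gene, ends inside Prosalpha1, and CG18853 ends inside Prosalpha1R, each with 17 exonic bases in common with its partner. The photolyase gene (7825289-7827319) had 17.7, 15.8 and 16.6 CPM in NF-YA RNAi, against 5.37, 7.23 and 6.05 CPM in the control, a log2 fold change of 1.43 ± 0.16 (adjusted p = 8.48e-04). CG18853 (7829062-7830429) had 41.3, 42.3 and 44.2 CPM in NF-YA RNAi, against 24.7, 24.2 and 25.05 CPM in the control, a log2 fold change of 0.79 ± 0.10 (adjusted p = 0.00168). All 4 genes stayed called whichever library was omitted. Outside this stretch the change did not continue. The next tested gene on the one side, cathD, had a log2 fold change of -0.40 ± 0.13 (adjusted p = 0.0739), and on the other side CG12822 had -0.18 ± 0.10 (adjusted p = 0.279). The neighbours puml and TTLL12 were at -0.28 and -0.24 and did not pass the test, and Dgk was called lower at -0.71 (adjusted p = 0.0259, called in 2 of the 6 fits with 1 library left out, those without NF-YA RNAi library 2 or control library 3, and at an adjusted p of up to 0.094 in the others). Since the control strain differs from the RNAi line, a strain difference and an effect of the RNAi at this position cannot be told apart.

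**Figure D4:**
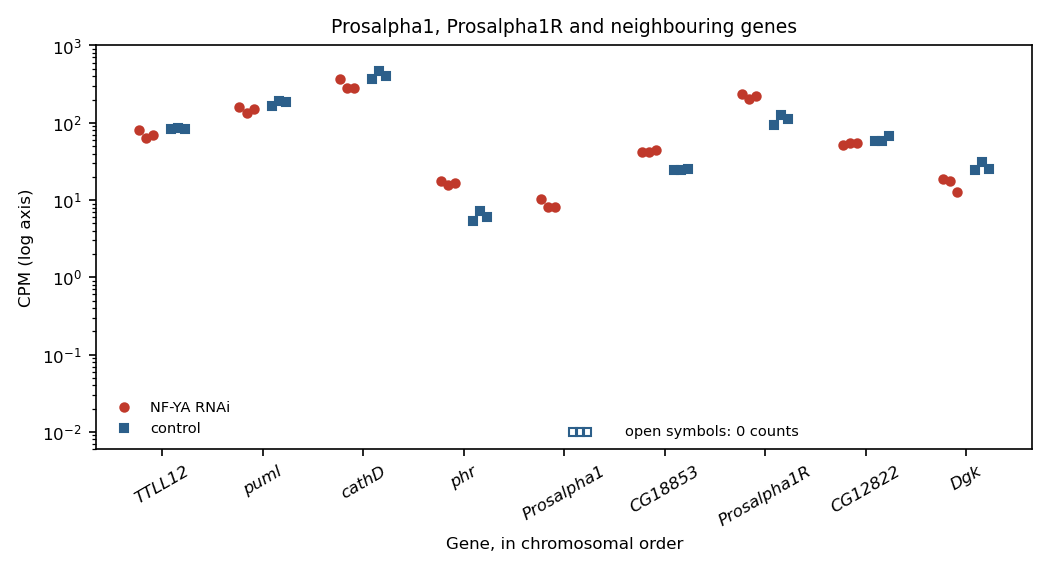
CPM (log axis) in each library is plotted for genes in their order along 2R, with NF-YA RNAi as circles to the left of the control as squares; open symbols mark 0 counts, and CG30383 and Atg10, with at most 2.26 CPM, are left out. From phr to Prosalpha1R the NF-YA RNAi libraries all lie above the control libraries, while for the other genes shown they do not.

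Of the 8 core beta genes, which form the inner rings, 3 were called higher, as were 6.19% of all genes tested. The class median was 0.25. Prosbeta4 (2L:16731180-16732133), a subunit without a proteolytic site, had 42.3, 51.8 and 49.7 CPM in NF-YA RNAi, against 33.7, 32.1 and 37.5 CPM in the control. It had the highest log2 fold change of the class, 0.48 ± 0.12 (adjusted p = 0.028), and its groups did not overlap. Prosbeta7 (3R:5357012-5358364), also without a proteolytic site, had 286, 303 and 328 CPM in NF-YA RNAi, against 242, 238 and 253 CPM in the control, and rose by 0.32 ± 0.09 on the log2 scale (adjusted p = 0.0423). Prosbeta3 and Prosbeta6, at 0.24 and 0.17, did not pass the test.

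The catalytic subunits did not share 1 outcome. Prosbeta1 (2R:16013805-16014787), which in yeast and mammals carries the caspase-like site, was called higher, with 230, 236 and 248 CPM in NF-YA RNAi, against 191, 189 and 195 CPM in the control. Its log2 fold change was 0.31 ± 0.08 (adjusted p = 0.0384), with the smallest SE of the beta genes. Prosbeta2, the trypsin-like subunit, had 72.8, 64.7 and 77.6 CPM in NF-YA RNAi and 50.4, 71.2 and 63.05 CPM in the control, and its log2 fold change of 0.22 ± 0.14 did not pass the test (adjusted p = 0.331). Prosbeta5, the chymotrypsin-like subunit, had 178, 154 and 157 CPM in NF-YA RNAi and 129, 179 and 158 CPM in the control. Its groups overlapped, and at 0.07 ± 0.13 (adjusted p = 0.779) it had the lowest log2 fold change of the class. Whether the catalytic subunits differ from each other in their change was not tested.

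Of the 7 Rpt genes, the ATPases of the base, 2 were called higher, as were 6.19% of all genes tested. The class median was 0.22. Rpt2 (3R:23929873-23931558) had 235, 259 and 263 CPM in NF-YA RNAi, against 178, 184 and 189 CPM in the control, with no overlap and a log2 fold change of 0.46 ± 0.09 (adjusted p = 0.0108). Rpt5 (3R:23752876-23754623) had 108, 118 and 123 CPM in NF-YA RNAi, against 84.9, 91.0 and 98.5 CPM in the control, and rose by 0.35 ± 0.10 on the log2 scale (adjusted p = 0.0456). In yeast the tails of both these ATPases dock into the alpha ring and help to open its gate. Rpt6 had 109, 88.2 and 105 CPM in NF-YA RNAi and 84.4, 116 and 87.4 CPM in the control. With its groups overlapping, it had the lowest log2 fold change of the class, 0.07 ± 0.14 (adjusted p = 0.788). Rpt1, Rpt3 and Rpt4 lay between 0.19 and 0.22 and did not pass the test.

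The 12 Rpn genes had a median log2 fold change of 0.30 and included 4 called higher by edgeR, which called 6.19% of all genes tested higher. In 10 of the 12 the groups did not overlap, all of them with NF-YA RNAi above the control. Separation in that direction held for 16.5% of all genes tested. The 3 Rpn genes of the base gave 2 calls. Rpn2 (3R:29153524-29157255), the scaffold that anchors the ubiquitin receptor Rpn13 in yeast and mammals, had 237, 216 and 226 CPM in NF-YA RNAi, against 144, 191 and 175 CPM in the control, a log2 fold change of 0.41 ± 0.12 (adjusted p = 0.0423). Rpn1 (3L:19915051-19918160), the docking subunit for shuttle factors, had 202, 213.5 and 215 CPM in NF-YA RNAi, against 161, 179 and 170 CPM in the control, and rose by 0.31 ± 0.09 on the log2 scale (adjusted p = 0.0473). Both changes were larger than the spread between libraries, but with 1 library omitted Rpn2 was called in only 1 of 6 fits and Rpn1 in 0. Rpn10 (3L:21537000-21538582), the ubiquitin receptor between base and lid, had 180, 211 and 214 CPM in NF-YA RNAi, against 144, 152 and 168 CPM in the control, a log2 fold change of 0.38 ± 0.11 (adjusted p = 0.0418).

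Among the 8 lid genes the count of calls depended on the tool. Over all genes with an adjusted p, edgeR called 6.19% higher and DESeq2 8.3%. Rpn12 alone was called by edgeR, whereas DESeq2 also called Rpn3, Rpn5, Rpn7, Rpn8 and Rpn11, at adjusted p of 0.0154 to 0.0284, and limma on the deposited values added Rpn3 and Rpn11. Rpn12 (3L:16583028-16584022), which in yeast joins the lid last, had 84.4, 85.8 and 94.2 CPM in NF-YA RNAi, against 57.05, 61.6 and 66.3 CPM in the control. Its log2 fold change was 0.52 ± 0.10 (adjusted p = 0.0108), the highest of the Rpn genes. Rpn5, Rpn3, Rpn8, Rpn11, Rpn7 and Rpn6 had log2 fold changes of 0.26 to 0.45 with groups that did not overlap, at edgeR adjusted p of 0.0591 to 0.115. Rpn11, the deubiquitinase of the lid, was among them at 0.30 ± 0.10 (adjusted p = 0.0687), and its partner Rpn8 stood at 0.30 ± 0.10 (adjusted p = 0.0797). Rpn9 was the exception in the lid, with 31.2, 31.4 and 26.3 CPM in NF-YA RNAi and 21.8, 35.4 and 30.8 CPM in the control. It had the lowest log2 fold change of all 34 members, 0.02 ± 0.17 (adjusted p = 0.965). Differences between the classes were not tested.

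Rpn13, the remaining Rpn gene of the base, did not pass the test at the level of the gene, with a log2 fold change of 0.09 ± 0.10 (adjusted p = 0.6). It had 235, 205 and 221 CPM in NF-YA RNAi and 189, 216 and 216 CPM in the control, and the groups overlapped. The shares of its transcripts are given as a description, since they were chosen after their values were seen. Transcript FBtr0087611 made up 70.1%, 69.1% and 69.5% of the TPM of Rpn13 in NF-YA RNAi, against 54.2%, 58.2% and 57.5% in the control. FBtr0114494 made up 26.1%, 27.9% and 25.03% in NF-YA RNAi and 32.5%, 31.4% and 30.4% in the control. FBtr0087610 made up 3.797%, 2.97% and 5.43% in NF-YA RNAi and 9.13%, 10.01% and 9.80% in the control. No library of one group reached the range of the other for any of these transcripts. The mean share of FBtr0087611 was 69.6% ± 0.46 in NF-YA RNAi and 56.6% ± 2.14 in the control (SD, n = 3 each), a difference of 12.95 percentage points. In the annotation FBtr0087611 has 4 exons with 1390 bases, FBtr0087610 4 exons with 1377 bases and FBtr0114494 3 exons with 1495 bases. These transcripts overlap, so their shares are Salmon's estimates rather than counts of unambiguous reads.

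Such a separation is not rare in these data. Over all genes at 1 CPM or more, the groups did not overlap for 11.5% of 7629 transcripts with a mean share between 5% and 95%. In the members there were 16 such transcripts in 7 genes, and the groups did not overlap for 3 of them, all of Rpn13, whose shares depend on each other. The 11.5% is a share of transcripts, and no share of genes was computed. With all 3 transcripts in 1 of 7 genes, nothing is read from this about the members. The transcripts of Prosbeta4 varied more between libraries, with FBtr0335142 at 18.7%, 23.8% and 40.9% in NF-YA RNAi and 4.89%, 16.1% and 21.2% in the control. Those ranges overlapped, as did the ranges for Prosalpha1R, Prosbeta5, Rpn2, Rpn6 and Rpn8.

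**Figure D5:**
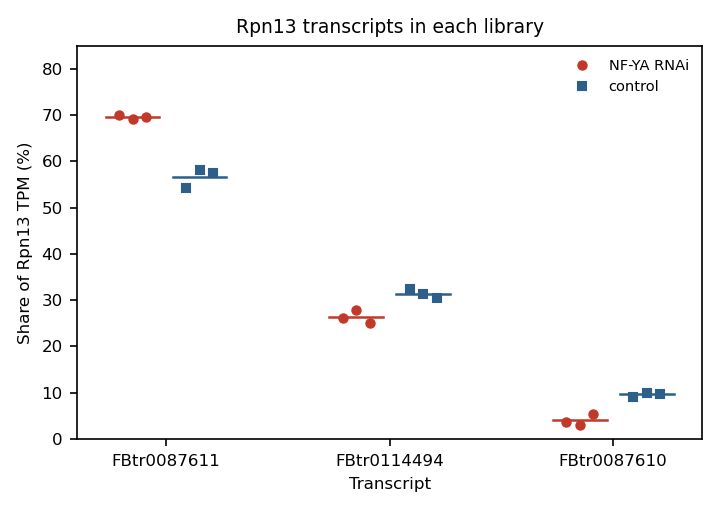
The share of the TPM of Rpn13 (%) taken by its 3 main transcripts is plotted for each library, with NF-YA RNAi as circles left of the control as squares and bars at the group means. FBtr0087611 lies at 69.1% to 70.1% in NF-YA RNAi and 54.2% to 58.2% in the control, and the other transcripts are lower in NF-YA RNAi.

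The copies other than the alpha1 pair were hardly expressed. Rpt3R had 64, 51 and 0 estimated counts in NF-YA RNAi and 8, 50 and 25 in the control, under 1 CPM in every library, whereas its partner Rpt3 had 224, 211 and 245 CPM in NF-YA RNAi and 190, 209 and 197 CPM in the control. Prosbeta2R2 had 25, 30 and 80 counts in NF-YA RNAi and 48, 32 and 52 in the control, and its partner Prosbeta2 was expressed at the level given above. Neither copy passed the test, with SEs of 1.501 and 0.95 on the log2 scale, so that a change of either would have to be large to be detectable at this depth. Rpt3 stood at 0.19 ± 0.09 (adjusted p = 0.218). The annotation holds 14 further genes with symbols of the same form that are not among the members. Of these, 12 had 0 counts in every library, which allows at most 0.0246 to 0.0378 CPM. The other two were Prosalpha1 and Rpt6R, which had 14 counts in NF-YA RNAi library 2 and 0 elsewhere. In the same libraries 4 testis markers summed to at most 0.0257 CPM in NF-YA RNAi and 0.113 CPM in the control, with dj and ProtB at 0 throughout. The 4 germline markers summed to 0.71, 2.08 and 1.26 CPM in NF-YA RNAi and to 0.98, 0.67 and 0.69 CPM in the control, above the level of Rpt3R, with osk at 0 throughout. The part of these cells in the counts of the copies was not tested.

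Some of the members share exonic bases with a gene on the other strand, and the strand setting of the counting is not given in the sources used here. This concerns 14 of the 34, with up to 13% of the exonic bases for Rpt6, shared with CG1801. Among the genes called higher it concerns Rpt2 at 7.1%, Prosbeta4 at 2.5%, Prosalpha1R at 1.8%, Prosbeta1 at 1.3% and Rpt5 at 0.1%. For these genes reads from the other strand cannot be told apart.

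Genes that act with the proteasome were compared in the same fit. Of 10 assembly factors, activators and inhibitors tested, 2 were called higher and 0 lower, where 6.19% and 8.02% of all genes tested were. In this list 1 gene was lower at an unadjusted p under 0.05, and the median log2 fold change was 0.25. Pomp, the chaperone that matures the core particle, had 202, 286 and 230.5 CPM in NF-YA RNAi, against 137, 112 and 147.5 CPM in the control. Its log2 fold change of 0.86 ± 0.15 (adjusted p = 0.00637) was larger than that of every member except Prosalpha1R, and it stayed called whichever library was omitted. Usp14, a deubiquitinase that binds the base, had 31.35, 31.4 and 34.5 CPM in NF-YA RNAi, against 18.1, 26.25 and 20.9 CPM in the control, a log2 fold change of 0.57 ± 0.15 (adjusted p = 0.0318). That call was kept only without control library 2, with adjusted p of up to 0.107 in the other fits. The activator REG stood at 0.12 ± 0.16 (adjusted p = 0.69).

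Of 12 genes for ubiquitin, its activating enzyme and shuttle factors, 1 was called higher and 1 lower, and the median was 0.05. Over all genes tested, 6.19% were called higher and 8.02% lower. The counts are near these shares, and nothing is read from them about the list. The cofactor p47 of the segregase TER94 had 142, 154 and 145 CPM in NF-YA RNAi, against 114, 116 and 119 CPM in the control, a log2 fold change of 0.33 ± 0.09 (adjusted p = 0.0335). With 1 library omitted it was called only without NF-YA RNAi library 2, with adjusted p of up to 0.13 in the others. Ubi-p63E, a polyubiquitin gene, fell to 121.5, 112 and 158 CPM in NF-YA RNAi, against 175, 217 and 192 CPM in the control, a log2 fold change of -0.58 ± 0.14 (adjusted p = 0.0272). It was not called without NF-YA RNAi library 2 or 4 or control library 2, with adjusted p of up to 0.105, nor when counts were scaled by library size alone (adjusted p = 0.0536). Because Ubi-p63E and Ubi-p5E encode tandem repeats of the same protein, the division of reads between them is uncertain. TER94 itself stood at 0.18 ± 0.14 (adjusted p = 0.477).

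None of the 7 genes of the list for cnc and its activation was called by edgeR, and 0 had an unadjusted p under 0.05. Of all 9080 genes tested, 14.2% were called in either direction, and 1217 were higher and 1442 lower at an unadjusted p under 0.05. In a list of 7 genes, nothing is read from a count of 0. The transcript of cnc was at 162, 145 and 145 CPM in NF-YA RNAi and 195, 178 and 157 CPM in the control, a log2 fold change of -0.23 ± 0.11 (adjusted p = 0.186). Keap1, the adaptor that holds cnc in check, was at 19.9, 16.8 and 18.9 CPM in NF-YA RNAi and 18.4, 17.0 and 16.5 CPM in the control (0.10 ± 0.13, adjusted p = 0.667). The COP9 signalosome, a relative of the lid, had 7 tested CSN genes with a median log2 fold change of 0.22, of which 0 were called and 0 had an unadjusted p under 0.05. In 2 of the 7, CSN5 and CSN1b, all the NF-YA RNAi libraries lay above all the control libraries. That held for 16.5% of all genes tested. The 8 CCT genes of the cytosolic chaperonin had log2 fold changes of 0.10 to 0.25 and a median of 0.19. None of the CCT genes was called by edgeR. At an unadjusted p under 0.05, 4 were higher, as were 13.4% of all genes tested. DESeq2 called CCT2, CCT5 and CCT7 higher, at adjusted p of 0.0335, 0.0173 and 0.0409. In 5 of the 8 all the NF-YA RNAi libraries lay above all the control libraries, as did 16.5% of all genes tested. The differences between these complexes and the proteasome were not tested.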

How the data were processed

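RNA of FACS-sorted YFP-positive midgut cells was sequenced in 6 libraries. Per the study's methods, paired reads of 75 bases were trimmed with Trim Galore, aligned with STAR and quantified with Salmon in nf-core/rnaseq. GEO's processing notes name TopHat2, HTSeq and other tools instead. The authors deposited Salmon's estimated counts and TPM for 34989 transcripts, with effective lengths. Their gene table holds signal values (counts divided by library factors), deposited beside the authors' own fold changes and p-values, which were not used.

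Estimated counts were summed to 17609 genes (Ensembl 115, BDGP6.54), leaving out 44 transcripts in no gene (at most 0.345% of counts). They were then rounded, filtered with filterByExpr and normalised by TMM. NF-YA RNAi was compared with control in R 4.3.3 by the quasi-likelihood test of edgeR (version 4.0.16, with a prior count of 0.125), and p-values of 9080 genes were adjusted by the Benjamini-Hochberg method, with a threshold of 0.05. DESeq2 1.42.0 and limma 3.58.1 (deposited signal values, pseudocount 1) served as alternatives. The fits were tested on simulated data. CPM values are scaled by TMM, and TPM values served for comparing levels between genes. Summaries used Python 3.11.15 with pandas 2.3.3, and plots matplotlib 3.10.9. Depth was 77092609 to 122269943 estimated counts per library. A count of 0 allows up to 3 counts, which is 0.0246 to 0.0378 CPM and covers counting error only. A chi-square of at least 69.7 per degree of freedom separated every pair of libraries.

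The members and lists were chosen with earlier results of these data known. Every member could be named, and full values are given for members past the threshold, the extremes of each class, the catalytic subunits and the copies with their partners. From the related lists, genes past the threshold are named, as are cnc, Keap1, Pomp, REG and TER94. The neighbours of Prosalpha1 and the Rpn13 transcripts were chosen after their values were seen. Promoter motifs were not analysed here.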

Additional observations from a re-analysis of the deposited data

How the results depend on the processing

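With 3 libraries per group the SEs of the expressed members were 0.08 to 0.17 on the log2 scale, which limits how small a change can be called. The count of 13 members called higher was within 1.5 times of that value under 7 of the 8 alternatives that left out no library and were fixed at the start, and 0 members were called lower under any alternative. With a replicate block on the title numbers, of which the groups share only 1 and 2, 2 members (Prosalpha1R and Prosalpha4) and 787 genes in all were called, against 13 and 1290 without it. The fit with the block left 1 residual degree of freedom, against 4 without it. Control library 3 and NF-YA RNAi library 5, whose title numbers are not shared, add nothing to its comparison of the groups. The deviations of same-numbered libraries correlated at 0.07 and -0.14. With only 2 such pairs, these values cannot decide whether a number marks a shared batch, and the labels do not say. The main fit used no block. Leaving out 1 library gave 1 to 10 members called higher, 506 to 1243 genes called in all and a median of 0.26 to 0.34. Scaling by library size alone raised the median to 0.38. Summing Prosalpha1 and Prosalpha1R, an alternative chosen after seeing the data, left 13 called. Members with a change near 0 (Rpn9, Rpt6, Prosbeta5) or with very low counts (Prosbeta2R2, Rpt3R) changed sign in places. Under the replicate block Rpt6 stood at -0.0099 and Prosbeta2R2 at -0.76, and with limma on the deposited values Prosbeta2R2 stood at -0.088 and Rpt3R at -0.71. With 1 library left out, log2 fold changes ranged from -0.16 to 0.17 for Rpn9, from -0.34 to 1.16 for Rpt3R, from -0.012 to 0.23 for Rpt6, from -0.81 to 0.61 for Prosbeta2R2, from -0.050 to 0.18 for Prosbeta5 and from -0.011 to 0.31 for REG. Of 47 single genes recomputed, 13 lost their call under the replicate block, 5 gained one with DESeq2, and 4 gained and 1 lost one with scaling by library size alone. The cause was not tested.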
